A study of Mus musculus with 2 samples.

Results

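Strong distal DNase I hypersensitive sites (DHS) of mouse splenic B cells are described here. They were chosen by the score that the deposited peak list gives each DHS: the members are the 1247 peaks on chromosomes 1 to 19 with a score of 100 or more that overlapped no window from 5 kb upstream to 2 kb downstream of an annotated transcription start site (TSS). They are 5.06% of the 24654 distal peaks on these chromosomes, and they are compared with the remaining 23407, called weaker distal peaks. The whole list holds 47542 peaks, of which 46610 lie on chromosomes 1 to 19.

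The B cells came from the spleen of C57/Bl6 mice aged 8 weeks, of genotype Trp53+/+ and mock treated, and were enriched with magnetic beads against B220, a B cell surface marker. The series consists of 1 DNaseI library, which has the peak list, and 1 input library, for which no peak list was used here. There are no replicates, so every difference is a description of 1 library, and no test was made. All intervals are at the 95% level and cover counting error only, with the spread between animals or digests left out. Among the genes on these chromosomes, 9 of 9 B cell marker genes had a peak in the window around a TSS, against 1 of 8 for T cells (Lck), 3 of 7 for myeloid cells (Cd14, Elane and Itgam) and 2 of 5 for erythroid cells. Longer gene lists were chosen with earlier results of these data known. In these such a peak was found for 43 of 43 B cell, 7 of 22 T cell, 9 of 20 myeloid and 7 of 14 erythroid genes. Over all protein-coding genes the share was 57.9%. The part of other cells in the peaks was not tested.

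DNase I cuts DNA that is not wrapped in nucleosomes more readily than packed chromatin, so that a DHS marks a stretch of accessible DNA. Away from promoters such stretches include enhancers, which raise transcription of genes at a distance, and insulator elements bound by CTCF, a zinc finger protein that helps to shape chromatin loops. In B cells, enhancers are known to be bound by factors such as PU.1, PAX5, EBF1, E2A, IRF8 and octamer proteins.

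The sequences that follow are the middle of some of the strongest members and show which short words lie there. Each is the mm9 plus strand, with the matches to words of a fixed list in capitals. These words are the cores of known binding sequences, and a match is a description of letters, not a site. The first 6 are those of the highest scores among members with such a word in the central 300 bp.
Hfe2, chr3:96305093-96305130, with the KLF and SP word on the minus strand: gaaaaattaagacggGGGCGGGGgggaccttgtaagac
Ctcf, chr8:108147340-108147569, with an E-box, the CTCF word on the minus strand and the ISRE word: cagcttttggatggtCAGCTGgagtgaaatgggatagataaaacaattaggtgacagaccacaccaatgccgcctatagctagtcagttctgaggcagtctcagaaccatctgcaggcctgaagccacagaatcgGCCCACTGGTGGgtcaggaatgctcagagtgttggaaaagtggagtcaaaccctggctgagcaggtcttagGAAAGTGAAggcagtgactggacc
Hvcn1, chr5:122669717-122669995, with 3 E-boxes, the PU.1 word and the KLF and SP word on the minus strand: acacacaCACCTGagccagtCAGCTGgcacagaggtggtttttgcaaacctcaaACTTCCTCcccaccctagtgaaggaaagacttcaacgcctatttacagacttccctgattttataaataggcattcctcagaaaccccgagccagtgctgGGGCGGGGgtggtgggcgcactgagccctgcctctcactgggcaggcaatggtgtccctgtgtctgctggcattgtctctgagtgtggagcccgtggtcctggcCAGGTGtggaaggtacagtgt
Zfp869, chr8:72240377-72240414, with the CRE word: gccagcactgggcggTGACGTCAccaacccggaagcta
Dcn, chr10:96776166-96776189, with the AP-1 word: gcacgaacacccataTGATTCAtc
Rnf19b, chr4:128710048-128710140, with the NF-kappaB word and the PU.1 word on the minus strand: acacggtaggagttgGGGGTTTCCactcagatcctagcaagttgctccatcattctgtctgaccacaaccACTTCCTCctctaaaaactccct

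The next 3 were picked after their values were seen, because the nearest protein-coding gene encodes a transcription factor of B cells and the middle holds words of lymphoid factors. The Ets1 peak lay 787413 bp from that gene.
Irf8, chr8:123249293-123249330, with the octamer word on the minus strand: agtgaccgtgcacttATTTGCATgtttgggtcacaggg
Bach2, chr4:32445752-32445779, with the ETS-IRF composite word on the minus strand: atttTTCACTTCCttttttttttctcca
Ets1, chr9:33290932-33291129, with the PU.1 word on the minus strand, the ETS-IRF composite word and 2 E-boxes: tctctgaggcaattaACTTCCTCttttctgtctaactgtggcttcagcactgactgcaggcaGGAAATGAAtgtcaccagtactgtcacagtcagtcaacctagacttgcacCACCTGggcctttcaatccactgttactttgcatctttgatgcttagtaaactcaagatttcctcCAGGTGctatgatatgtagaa

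The members spanned a wide range of scores. Their median score was 137.8, with quartiles of 114.4 and 183.3 and a maximum of 511.8. Weaker distal peaks had a median of 23.2. The scale of the score is not stated, so it ranks peaks within this list only. High scores were less frequent away from promoters, since 6090 of 21956 promoter peaks (27.7%) reached 100. Of all 7337 peaks that did, 17.0% (16.2 to 17.9) were distal, against 52.9% of peaks of any score.

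Scores ran on across the threshold without a gap. Just above it, the peaks nearest to Btn1a1 and Sacm1l had a score of 100.1 each, whereas those just below lay nearest to Gm9869 (99.98), Etv3 (99.95) and Morf4l1 (99.95). Their widths overlapped, at 1385 and 1945 bp above the threshold and 1233, 2422 and 1505 bp below it.

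Strong members were wide. The median width was 1623 bp, with quartiles of 1287 and 2084 bp, against 569 bp for weaker distal peaks (397 and 950 bp). A width of at least 1 kb was found for 1106 members (88.7%) and for 22.1% of the weaker peaks, and a width of at least 3 kb for 66 members (5.29%) and 39 weaker peaks (0.167%). Score and width come from the same caller and the same reads, and are not independent measures. Across the weaker peaks they rose together (Spearman rho = 0.608 over 23407 peaks of this library), and within the members the relation was slight (rho = 0.185 over 1247 peaks). Strong promoter peaks were about as wide as the members, with a median of 1575 bp.

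**Figure D1:**
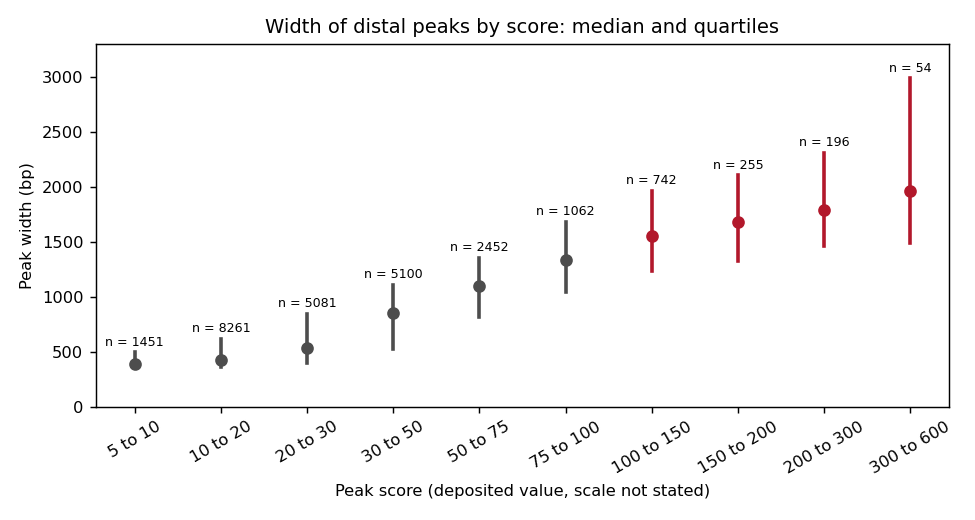
Width of distal peaks in bp (y axis) for 10 ranges of the deposited score (x axis). Points are medians, bars run from the lower to the upper quartile, grey marks weaker and red strong distal peaks, and the median rose from 388 bp at scores of 5 to 10 to 1960 bp at scores of 300 to 600.

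The 15 members with the highest score lay in very different gene neighbourhoods. The first was a peak of 4351 bp on chromosome 3, at 96302808 to 96307158 (score 511.8), 24125 bp upstream of Hfe2, the gene for hemojuvelin, an iron regulator of liver and muscle. Second was a peak of 1710 bp with a score of 491.4 that lay 6822 bp upstream of Irgc1, a GTPase gene. Neither gene had a promoter peak. The nearest gene is used as a label of position, and whether it is a target was not tested.

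The third peak, with a score of 454.6, lay 12987 bp upstream of Ctcf itself and overlapped an annotated exon. Its middle held the CTCF word printed above. The fourth, with a score of 450.3, lay in an intron of Hvcn1, which encodes a voltage-gated proton channel of B cells and other leukocytes. That peak spanned 2910 bp and had 7 other peaks within 10 kb.

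Zfp869 followed with 445.2, Dcn (decorin, a matrix proteoglycan) with 441.6, and Olfr1368 (an olfactory receptor) with 440.7. Ranks 8 to 10 were held by Mki67, the proliferation antigen, with 404.9, Rnf19b, a ubiquitin ligase, with 393.1, and Scel with 377.6. The last 5 were Ccdc9 (377.4), Eif2a (376.9), Wisp3 (373.1), Lhpp (363.4) and Snx9 (363.1). All but 3 of the 15 were intergenic, the exceptions being the peaks of Ctcf, Hvcn1 and Lhpp. The Dcn peak lay 166205 bp from the start of its gene, the farthest of these.

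The 5 widest members were not the same set. The widest spanned 6076 bp in an intron of Pax5, on chromosome 4 at 44681885 to 44687960, with a score of 315. PAX5 is the factor that commits progenitors to the B lineage. The next were peaks of 5920 bp nearest to Tctn1 but inside Hvcn1 (score 100.6), of 5873 bp nearest to St3gal1 (220.3), of 5032 bp in Gramd3 (115.5) and of 4921 bp nearest to Ap1m1 (129.4). Hvcn1 thus held both the fourth highest score and the second widest member.

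Genes of the B cell list were nearest to a small part of the members, though a larger one than of weaker peaks. The list names 43 genes that matched the annotation on these chromosomes, for surface receptors, signalling proteins and transcription factors of B cells, and 20 of them were nearest to at least 1 strong distal peak. Over all protein-coding genes 1003 of 21418 (4.68%) were, and over the 7532 genes nearest to any distal peak the share was 13.3%. The 20 genes had 41 strong peaks, which is 3.29% (2.43 to 4.43) of the members, against 1.78% of weaker distal peaks, a ratio of 1.85 (1.35 to 2.54). This and the other gene lists were chosen with earlier results of these data known, so their ratios are descriptions only. Of all 457 distal peaks nearest to these genes, 8.97% (6.68 to 11.9) were strong. Syk was matched only afterwards, by its older symbol Sykb, and with it 21 of 44 genes had 43 strong peaks, a ratio of 1.87 (1.38 to 2.55). With the threshold at a score of 150 the ratio of the first list was 1.29 (0.732 to 2.27), and its interval held 1.

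Receptor and signalling genes had members over a wide range of scores. Syk (Sykb), a kinase recruited to the B cell receptor, had peaks of 306.7 and 102.3, at 10298 and 17161 bp upstream of its start. Lyn, another kinase of this receptor, had peaks of 269.7 and 121.8 upstream of its start. For Cd79b, a signalling subunit of that receptor, a peak of 223.3 lay 11142 bp upstream, across exons of the neighbouring Scn4a. Plcg2, the phospholipase downstream of the receptor, had 3 peaks, at 171.4, 170.2 and 134.1, 2 of them in its own introns. Blnk, an adaptor of the same pathway, had a peak of 109.3.

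The scores at co-receptors and cytokine receptors lay within that range. Cd22, an inhibitory co-receptor, had a peak of 161.2, and Cr2, a complement receptor, 1 of 130.1. Il4ra, the receptor of interleukin-4, had peaks of 143.7 and 114.3. Tnfrsf13c and Tnfrsf13b, receptors of the B cell survival factors BAFF and APRIL, had 1 peak each, of 136.1 and 109.2. Cd83, an activation marker, had 5 peaks between 106.8 and 189.7 spread on chromosome 13 from 43859573 to 44162642.

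Transcription factor genes had members in introns and far from the gene. Besides the Pax5 peak, Ebf1, a factor needed for early B cell development, had a peak of 191.2 in an intron, 143188 bp from the nearest start. Irf8, a regulator of B cell and myeloid genes, had peaks of 186.2 and 105.9, and the stronger held the octamer word printed above. Bach2, a repressor that restrains plasma cell differentiation, had 5 peaks between 113.3 and 137.9, of which 3 were intergenic, 1 lay in an intron and 1 overlapped an exon.

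Bcl6, the repressor of germinal centre cells, had a peak of 162.4 at 162870 bp upstream and 1 of 106.5 in an intron. Foxo1 had peaks of 142.7 and 127.6, and Mef2c of 111.6 and 104. Ets1 had 4 peaks, of 129.1, 108.5, 102 and 101. The second of these lay 787413 bp from Ets1, the largest distance of any member, so that its link to the gene rests on position alone.

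Lymphocyte homing genes encode the receptors and adhesion proteins that steer cells into and out of lymphoid organs. Of 14 such genes, 8 were nearest to 14 members, which is 1.12% (0.670 to 1.88) of members and 0.444% of weaker peaks, a ratio of 2.53 (1.45 to 4.40). Cxcr5 (138.4) and Ccr7 (161, 144.5 and 105) are in this list and in the B cell list. Cxcr4, the receptor of CXCL12, had peaks of 234.9 and 112.4.

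Among adhesion genes, Itgb7, an integrin chain, had a peak of 206.9 that overlapped an exon of its own gene. Ccr6 had a peak of 155.3, and Klf2, a regulator of lymphocyte traffic, 1 of 132.7 in an intron of Eps15l1. S1pr1, through which lymphocytes leave lymphoid organs, had 4 intergenic peaks close together in score, from 103.5 to 116.8. The members of this list thus ranged from just above the threshold to beyond the upper quartile of the members' scores.

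**Figure D2:**
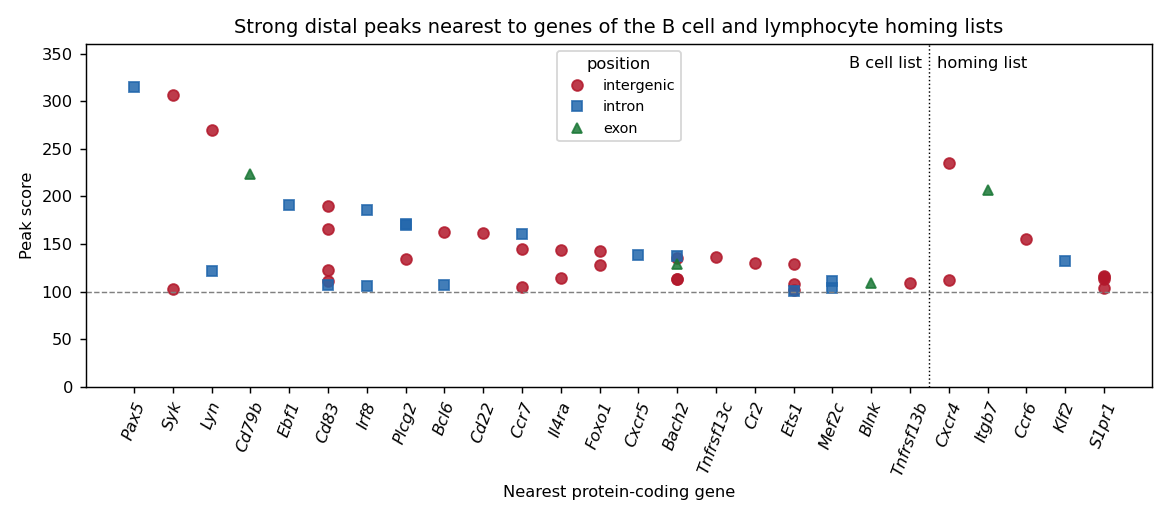
Score (y axis) of the strong distal peaks whose nearest protein-coding gene (x axis) is in the B cell list or the lymphocyte homing list, for the genes reported here. Circles are intergenic, squares intronic and triangles exonic peaks, the dashed line is the threshold of 100, and genes of both lists are drawn with the B cell list, where Pax5 (315) and Syk (306.7, annotated as Sykb and matched afterwards) are highest.

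The other lists had few members or none. The p53 target list had 24 genes. Btg2, Tnfrsf10b, Pmaip1, Ddit4 and Sesn1, 20.8% of them, were nearest to strong peaks. That share was 4.68% over all protein-coding genes and 13.3% over those nearest to any distal peak. The list's 7 strong peaks were 0.561% of members, against 0.222% of weaker peaks. The ratio was 2.53 (1.15 to 5.55), with each of these few peaks counted as independent. Btg2, an antiproliferative gene, had 3 of them, with scores of 311.1, 232.1 and 148.5, and Tnfrsf10b, a death receptor, had 1 of 242. The peaks of Pmaip1 (128.1), Ddit4 (115.1) and Sesn1 (103.5) were lower.

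For NF-kappaB and Toll-like receptor genes the ratio was 0.9504 (0.349 to 2.59), from 1 peak each at Tlr1 (170.4), Nfkb1 (158.7), Rela (126.3) and Cd180 (122.6). Housekeeping genes were nearest to 3 members, among them those at Eef1a1 (252.7) and Ywhaz (167.5), a ratio of 2.56 (0.767 to 8.54). Markers of other blood cells were also found. Cd3d (122.4) and Ctla4 (113.2) were the only ones among 22 T cell genes, and Emr1 (143.9 and 115.3) and Mrc1 (104.3) among 20 myeloid genes. The ratio of shares was 0.988 (0.239 to 4.09) for the T cell and 1.71 (0.524 to 5.56) for the myeloid list. Of 14 erythroid genes and of 22 genes of other tissues, 0 were nearest to a strong distal peak. These lists had 4 and 11 weaker distal peaks in all, so that at a share of 5.06% strong peaks a count of 0 is no result about them. Such a count allows a share of up to 0.307% of the members by the Wilson upper bound.

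Most genes had a single member. Of the 1003 nearest genes, 823 had exactly 1 strong distal peak, 141 had 2, and 39 had 3 or more. The largest number belonged to Psd2, with 8 peaks and a median score of 147.6. Besides Bach2 and Cd83, 5 each were found for Ier5, an immediate early gene (median 123.8), and Gm10293 (117.6). Exactly 4 were found for 12 genes, of which Btg1, Chd2, Tbl1xr1, Iglc2 and Zfp541 had the highest median scores. Btg1, a relative of Btg2, had 4 with a median of 219.4 and a maximum of 316.7. Chd2, a chromatin remodeller, had 4 (median 189.6), Tbl1xr1, a corepressor subunit, 4 (178.6), and Zfp541 4 (154.9).

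Most members had no other strong peak within 10 kb. Their density was 0.390 to 0.998 per Mb over the chromosomes, and whether they cluster beyond that was not tested. Joined at gaps under 10 kb, the members formed 1143 stretches, of which 1056 held a single strong peak, 76 held 2 and 11 held more. The longest run, at Psd2, had 7 strong peaks within 32721 bp. Those at Zfp541 and Ier5 had 4 each, within 12206 and 28274 bp. A run of 3 lay at Fcgr4 and Fcgr3, genes of Fc receptors for IgG, with a maximum score of 355.9.

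Strong peaks also lay at antigen receptor loci, as was noticed after the values had been seen. Iglc2, an immunoglobulin lambda constant gene, had 4 (243.8, 172.6, 168.9 and 105.5), spread on chromosome 16 from 19146416 to 19238163 and not part of a run of 3 or more. In the strongest of them, 37.0% of all 31-base words occurred more than once in the genome; whether this touched its score was not tested. A run of 3 peaks on chromosome 12, from 114455287 to 114467497 (352.6, 260.1 and 160), was nearest to Tmem121 among protein-coding genes and lay 56039 bp from Ighg2c, a constant gene of the immunoglobulin heavy chain. Up to 15.8% of 31-base words were repeated in a peak of that run. A run of 3 peaks on chromosome 14, from 54845954 to 54854078 (306.4, 210.6 and 161.1), was nearest to the start of Dad1 and lay 3182 bp from Trac, the constant gene of the T cell receptor alpha chain. In that run up to 15.2% were repeated.

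Strong members were more often intergenic than weaker ones. Of the members, 741 (59.4%, 56.7 to 62.1) overlapped no annotated gene, against 48.4% of weaker distal peaks, a ratio of 1.23 (1.17 to 1.29). Intronic peaks made up 28.4% against 42.0%, and peaks that overlap an exon 12.2% against 9.66%. With weaker peaks weighted to the widths of the members, the difference in intergenic share was 7.79 percentage points (4.46 to 11.1) in place of 11.1. The share rose with the score, from 46.6% at scores of 5 to 20 to 74.1% (61.1 to 83.9) of the 54 members at 300 or more.

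Distance to the nearest TSS of a protein-coding gene was alike in median, at 20152 bp for members and 20376 bp for weaker peaks, measured from the peak centre. Beyond 100 kb lay 8.18% (6.78 to 9.83) of members and 10.2% of weaker peaks. The nearest gene had a promoter peak for 83.5% of members and 83.0% of weaker peaks, a difference of 0.52 percentage points (-1.59 to 2.64). Its direction depended on the choices, since it was -2.56 (-5.01 to -0.106) with width weighting and 1.72 (0.160 to 3.27) at a threshold of 75. At scores of 300 or more the share was 74.1% (61.1 to 83.9).

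Other peaks were often close. Within 10 kb of 83.8% (81.7 to 85.7) of the members another peak was found, against 76.7% of weaker distal peaks. The excess lay at gaps of 500 bp to 10 kb, where 54.5% of members and 41.3% of weaker peaks had their nearest neighbour. At gaps under 500 bp members had fewer neighbours, 29.4% against 35.5%. With width weighting the difference at 10 kb was 2.40 percentage points, and its interval of -0.130 to 4.93 held 0. At a limit of 2 kb it was 0.759 (-2.09 to 3.61).

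**Figure D3:**
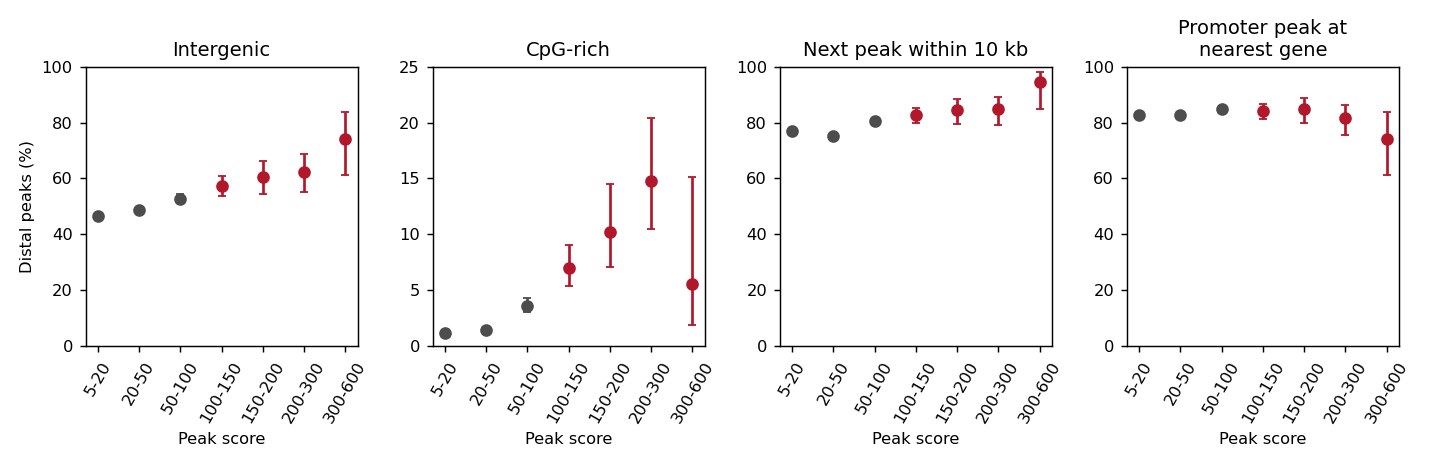
Share of distal peaks in percent (y axis) that were intergenic, CpG-rich in the central 300 bp, within 10 kb of another peak, or nearest to a gene with a promoter peak, by range of score (x axis). Points are shares with 95% Wilson intervals, grey for weaker and red for strong distal peaks, and the second panel has its own scale up to 25%.

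CpG-rich DNA, typical of many promoters, was found in a minority of the members but more often than in weaker peaks. A peak was called CpG-rich when its central 300 bp had at least 55% G and C and at least 0.6 times as many CpG as its base content predicts. This held for 110 members (8.82%, 7.37 to 10.52) and for 1.64% of weaker distal peaks, a ratio of 5.39 (4.40 to 6.61), and for 33.9% of promoter peaks. With width weighting the difference was 5.59 percentage points (3.88 to 7.31). Of the CpG-rich members 80.0% (71.6 to 86.4) were intergenic, against 57.4% of the other members and 56.9% of CpG-rich weaker peaks.

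By score, the CpG-rich share rose from 1.16% at 5 to 20 to 14.8% (10.5 to 20.4) at 200 to 300, and was 5.56% (1.91 to 15.1) in the 54 peaks above that. CpG-rich members had a median score of 155.9, and the others 136.2. Of the 15 highest scores, those of Zfp869 and Ccdc9 belonged to CpG-rich peaks. Over whole peaks, fewer members met the same limits, 3.05% against 0.987% of weaker peaks.

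Sequence words were counted on both strands in the central 300 bp of each peak. The centre is the middle of the called interval, not a summit, which the list does not give. The 18 words are PU.1 (GAGGAAGT), ETS with CCGG (CCGGAAGT), RUNX (TGTGGTT), EBF (CCCNNGGGA), the E-box of E2A type (CAGGTG), the palindromic E-box (CAGCTG), octamer (ATGCAAAT), NF-kappaB (GGGNNTTCC), ISRE (GAAANTGAA), the ETS-IRF composite (GGAANTGAA), MEF2 (CTAAAAATA), AP-1 (TGANTCA), CRE (TGACGTCA), KLF and SP (CCCCGCCC), the word of GATA factors (AGATAAG), HNF1 (GTTAATNAT), the CTCF word of 12 bases with at most 1 mismatch, and the p53 element of 20 bases with at most 2. The E-box CAGGTG can lie within a CTCF word, the PU.1 and ETS words share their last letters, and the PU.1 word can overlap the composite. Words were counted separately also where they overlapped.

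Of these words, 5 were more frequent in members than in weaker distal peaks with an interval above 1. Weaker peaks with scores of 50 to 100 came closer to the members for each of them. They held the PU.1 word in 6.40% (members 6.58%), NF-kappaB in 6.2% (6.7%) and the composite in 4.50% (5.45%). The ETS word was found in 0.911% (1.04%) and the KLF and SP word in 3.07% (5.13%). The KLF and SP word was found in 5.13% (4.04 to 6.50) of members and 2.09% of weaker peaks, a ratio of 2.45 (1.90 to 3.16), and in 10.9% of promoter peaks. It remained the one word with an interval above 1 when weaker peaks were weighted to the width of the members, at 1.65 (1.20 to 2.28). Weighted by G and C content its ratio was 1.60 (1.24 to 2.05), and outside the CpG-rich peaks 1.98 (1.44 to 2.71). Among CpG-rich peaks it was 1.14 (0.751 to 1.74). By position it was 2.88 (2.15 to 3.86) for intergenic, 1.16 (0.550 to 2.46) for intronic and 1.80 (0.834 to 3.87) for exonic peaks, and these were not tested against each other.

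The PU.1 word was found in 82 members (6.58%, 5.33 to 8.09) and in 4.09% of weaker peaks, a ratio of 1.61 (1.29 to 2.001). By score its share was 7.41% at 100 to 150, 6.3% at 150 to 200 and 2.55% (1.09 to 5.83) at 200 to 300. It was 11.1% (5.19 to 22.2) in the 54 members at 300 or more. By position the ratio was 1.87 (1.42 to 2.46) for intergenic, 1.64 (1.11 to 2.43) for intronic and 0.475 (0.152 to 1.48) for exonic peaks. PU.1 is an ETS factor of B cells and myeloid cells. Windows of 300 bp that lay 5 kb from the members and in no peak held its word in 1.65%, and promoter peaks in 2.95%. With width weighting the ratio was 1.10 (0.849 to 1.42), and its interval held 1. Counted over whole peaks, members had 0.151 PU.1 words per kb and weaker peaks 0.123, a ratio of 1.22 (1.09 to 1.38).

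The ETS-IRF composite, to which PU.1 binds together with IRF4 or IRF8, was found in 5.45% and 3.81%, a ratio of 1.43 (1.13 to 1.82), and 1.18 (0.882 to 1.57) with width weighting. Beside the members it was found in 4.63%, close to the share within them. The ETS word with CCGG was rare, in 13 members, at a ratio of 1.78 (1.01 to 3.14). Its interval lay above 1 also at thresholds of 75 (1.94, 1.26 to 2.97) and 150 (2.34, 1.10 to 4.97), in the central 150 bp (2.46, 1.18 to 5.13) and per kb of peak (1.47, 1.11 to 1.94). It held 1 with weighting by width (1.46, 0.721 to 2.95) or by G and C content (1.47, 0.834 to 2.59), without CpG-rich peaks (1.44, 0.732 to 2.81), without repeated peaks (1.71, 0.949 to 3.08) and beyond 10 kb from a TSS (1.21, 0.491 to 2.98). For NF-kappaB the ratio was 1.32 (1.06 to 1.63), and 0.945 (0.736 to 1.21) with width weighting, on the other side of 1. Its interval also held 1 with weighting by G and C content (1.19, 0.958 to 1.48) and per kb of peak (1.10, 0.993 to 1.23). At a threshold of 150 and in the central 150 bp the intervals of PU.1, the composite and NF-kappaB held 1. In promoter peaks the composite, the ETS word and the NF-kappaB word were found in 2.44%, 2.88% and 5.97%.

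For words of other lymphoid factors the intervals held 1. The ratio was 1.02 (0.926 to 1.13) for the E-box CAGGTG, found in 25.02% of members and 22.5% of windows beside them, and 0.997 (0.885 to 1.12) for CAGCTG. It was 0.967 (0.799 to 1.17) for RUNX, 1.12 (0.896 to 1.41) for EBF, 1.30 (0.915 to 1.84) for the octamer, 1.09 (0.800 to 1.498) for ISRE and 0.887 (0.735 to 1.07) for AP-1. The octamer moved with the choices, to 1.95 (1.26 to 3.02) at a threshold of 150, 1.44 (1.01 to 2.05) with weighting by G and C content and 0.932 (0.622 to 1.40) by width. For AP-1 at a threshold of 75 (0.864, 0.750 to 0.997) and CAGGTG in the central 150 bp (0.849, 0.724 to 0.995) the interval lay below 1. The p53 element was found in 3 members, 0.241% (0.0819 to 0.705), against 0.397% of weaker peaks and 0.260% of promoter peaks.

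Rare words gave wide intervals. These were 2.06 (0.994 to 4.26) for CRE, in 8 members, and 1.10 (0.565 to 2.16) for MEF2, in 9. Words of factors not typical of B cells also had intervals that held 1, at 1.12 (0.851 to 1.47) for GATA and 1.59 (0.861 to 2.93) for HNF1. The interval lay above 1 for GATA beyond 10 kb from a TSS (1.39, 1.03 to 1.88), for HNF1 with weighting by G and C content (1.87, 1.005 to 3.50), and at a threshold of 75 for CRE (2.02, 1.14 to 3.59) and MEF2 (1.60, 1.03 to 2.48). In promoter peaks the shares were 7.99% for EBF, 23.9% for CAGGTG, 16.2% for CAGCTG, 4.94% for RUNX, 1.13% for the octamer, 2.04% for ISRE, 5.71% for AP-1, 1.08% for CRE, 0.401% for MEF2, 2.48% for GATA and 0.310% for HNF1.

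**Figure D4:**
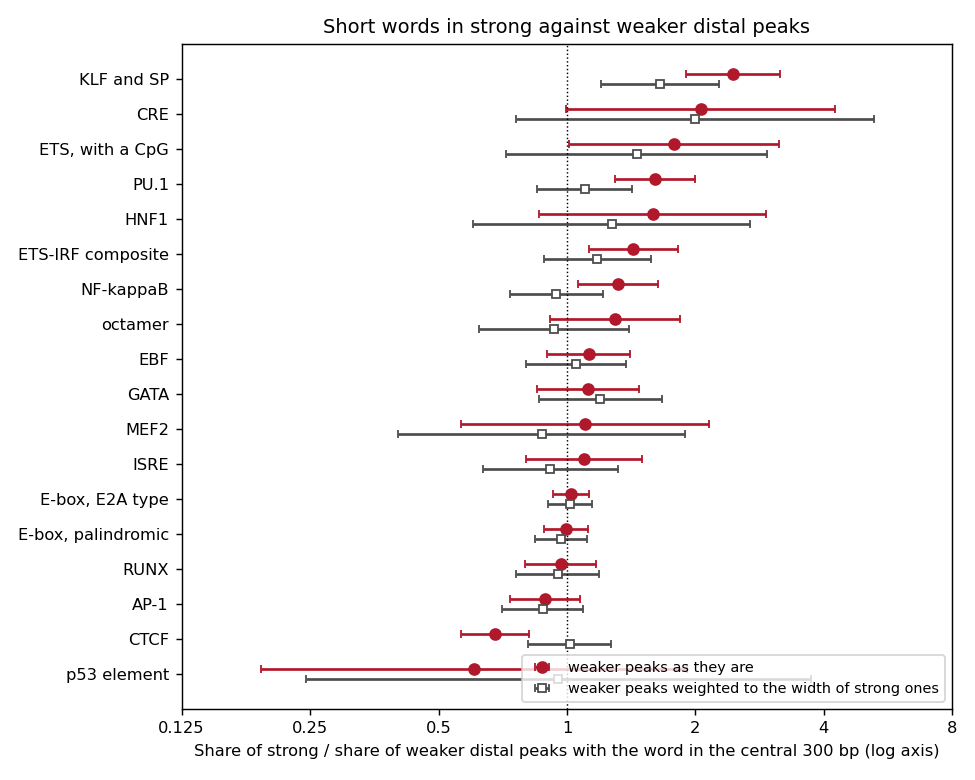
Share of strong divided by share of weaker distal peaks that hold each of the 18 words in the central 300 bp (x axis, log scale). Filled circles compare with weaker peaks as they are and open squares with weaker peaks weighted to the widths of the strong ones, bars are 95% intervals, and the dotted line marks a ratio of 1, which the square of CTCF (1.014) sits beside.

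The CTCF word was the one word of the list with an interval below 1 in the centre of members. It was found in 106 of them (8.50%, 7.08 to 10.2) and in 12.5% of weaker peaks, a ratio of 0.678 (0.563 to 0.816). Promoter peaks had it in 7.80% and windows beside the members in 4.14%. With width weighting the ratio was 1.01 (0.812 to 1.27). Per kb of peak the ratio was 0.919 (0.842 to 1.003). By score, the share with a central CTCF word rose from 6.29% at 5 to 20 to 19.6% (18.4 to 21.0) at 50 to 100, and then dropped to 9.03% (7.17 to 11.3) at 100 to 150.

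Members with a central CTCF word were narrower, with a median of 1380 bp against 1661 bp, and had a median score of 129.7 against 138.1. They had a neighbour within 500 bp in 18.9% (12.6 to 27.4) of cases, against 30.3% of the other members. Their intergenic share was 61.3% (51.8 to 70.04), close to the 59.2% of the rest.

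CTCF words were denser at certain distances from the peak edges, a measure taken after the central counts had been seen. Inside the members, followed from each edge up to the centre, there were 5.21 matches per 1000 edges at 50 to 100 bp and 9.16 at 300 to 350 bp. The number then rose to 23.8 at 350 to 400 bp and 34.6 at 400 to 450 bp, lay between 19.6 and 21.4 from there to 650 bp, and was 5.43 at 750 to 800 bp. Weaker peaks wide enough to be counted had 43.7 matches at 400 to 450 bp. Inside the edge, the CTCF words thus lay most densely between 350 and 650 bp in both groups. Measured from the centre the groups differed. Weaker peaks had 34.1 and 35.5 matches per 1000 peaks in the 50 bp on either side of it, and 11.2 and 13.2 at 100 to 150 bp. Members had 18.4 and 12.8 next to the centre, and 18.4 and 15.2 at 100 to 150 bp.

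A second place was just outside the edge. In the 50 bp next to it there were 16.4 matches per 1000 edges of members and 56.1 per 1000 edges of weaker peaks. In the 100 bp beyond either edge 4.17% (3.19 to 5.43) of members and 15.9% (15.4 to 16.3) of weaker peaks held the word, a ratio of 0.263 (0.201 to 0.344), and 0.712 (0.524 to 0.968) with width weighting. Moved outward by 5 kb, windows of the same size held it in 2.57% of members.

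The word beyond an edge was more frequent where another peak was close. Among members with a neighbour under 500 bp the share was 6.56% (4.45 to 9.57), and among the others 3.18% (2.21 to 4.56). For weaker peaks these shares were 21.3% (20.5 to 22.2) and 12.9% (12.4 to 13.4). Gaps ran down to 52 bp, with a lower quartile of 176 bp at weaker peaks. The 100 bp beyond facing edges can thus overlap, and the same word can then count for both peaks.

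The PU.1 word was likewise found beyond the edges, in 3.05% (2.23 to 4.16) of members and 4.77% of weaker peaks, a ratio of 0.639 (0.465 to 0.879), and 1.08 (0.736 to 1.59) with width weighting. Inside the members it rose from 2.81 matches per 1000 edges at 100 to 150 bp to 12.5 at 600 to 650 bp. For KLF and SP the share beyond the edges was higher in members, with 3.61% against 1.98%, a ratio of 1.82 (1.35 to 2.46), and 2.93 (1.87 to 4.59) with width weighting. Members thus had more KLF and SP words than weaker peaks both at their centres and beyond their edges.

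**Figure D5:**
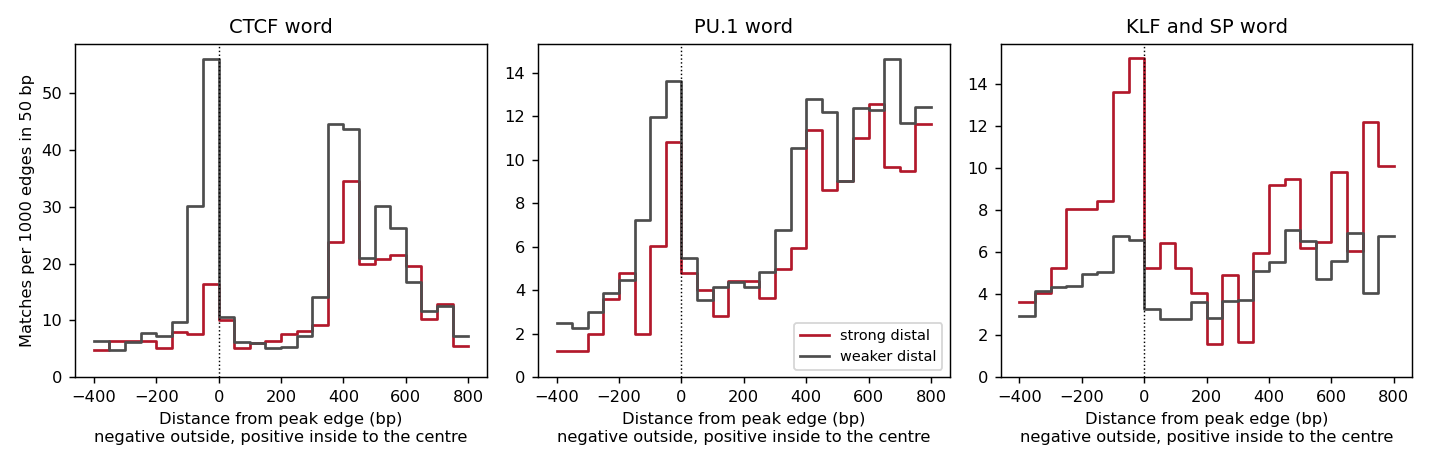
Matches to the CTCF, PU.1 and KLF and SP words per 1000 peak edges in steps of 50 bp (y axis, a scale for each panel) by distance from the edge in bp (x axis, negative outside, positive inside up to the peak centre, both edges pooled). Red is strong and grey weaker distal peaks, and CTCF matches stand out just outside the edge (16.4 and 56.1) and at 400 to 450 bp inside (34.6 and 43.7).

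Among all words of a given length that were present in at least 20 members, those with the highest unweighted ratios contained a CpG. The 10 highest of 2061 words of 6 bases were ACGTCG (3.70), CCGCGC (3.41), CGTCGC (3.40), CGCGGC (3.37), CCGCGA (3.35), CCGGCG (3.31), CGCCGC (3.28), CGCGCG (3.21), CGGCGC (3.12) and CGGCCG (3.10). These ratios were chosen for their size and are a description. ACGTCG was found in 30 members, and its ratio was 2.82 with weaker peaks weighted to the G and C content of the members. For CCGCGC, in 86 members, the weighted ratio was 1.72.

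The 10 highest of 4923 words of 8 bases were CGCCCCGC (5.36), CCGCCCCG (4.50), GCCTGCGC (4.48), CACCCGGA (4.15), GCGGGGCC (4.14), GCCGCCGC (4.04), CCCGGGCC (3.93), GCGGGAGC (3.92), CCCCCCGC (3.68) and AGCTGCGG (3.67). The first pair share most of their letters with the KLF and SP word. Each was found in 20 to 27 members. With weighting by G and C content the 10 ratios were lower, from 1.74 for GCCGCCGC to 3.09 for CACCCGGA, with 2.68 for CGCCCCGC and 2.07 for CCGCCCCG. Ranked by the weighted ratio, the 10 highest words of 8 bases included AATATCCT (2.50) and AAGATTTC (2.46), which hold no CpG.

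Some repeated sequence was more common in the members than in weaker peaks, and mostly repeated peaks were rare. No repeated 31-base word was found in 35.9% (33.2 to 38.6) of members and in 62.4% of the narrower weaker peaks, and the median share of such words was 0.917% and 0. More than 10% of these words occurred elsewhere in the genome in 96 members (7.70%, 6.35 to 9.31) and in 8.95% of weaker peaks. Above 50% were 1 member, nearest to Pxmp3 with a score of 121.6, and 118 weaker peaks. The share of members among distal peaks was similar between chromosomes, from 4.02% to 6.31% with a median of 5.15%.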

How the data were processed

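The peak list of the DNaseI library, made by the authors with MACS as the peak names show, was used as deposited: chromosome, start, end, name and a score per peak. The scale of this deposited score, the caller's version and settings, and the control used are not given in the sources used here. The study's methods give a MACS version and a p-value limit for its ChIP-seq peaks, and do not say whether these hold for the DNaseI list. The list holds no reads, so depth is unknown, and sites that the caller missed are not seen. The number of mice is not stated. The submitters' processing notes name mm9, BWA 0.6.2 and SAMtools, with no role.

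Peaks were placed against 90317 TSSs of GENCODE M1 on chromosomes 1 to 19. A peak overlapping no window was exon, intron or intergenic by any overlap. The nearest gene is the protein-coding TSS nearest to the peak centre. Upstream and downstream refer to that TSS, which can be internal to a gene. Words were searched in NCBI build 37 (mm9), and their search was checked on simulated sequence. Shares have Wilson intervals, and ratios log-normal intervals. Weighted comparisons used 8 bins of width or 10 of G and C content. Python 3.11.15, numpy 2.4.6, pandas 2.3.3, scipy 1.17.1, numba 0.67.0 and matplotlib 3.10.9 were used.

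Members, words and the 9 gene lists were chosen with earlier results of these data known. Named are the 15 highest scores, the 5 widest peaks, the 10 genes with most members, list genes nearest to a member, 3 peaks on each side of the threshold, all 18 words, and the 10 highest words of 6 and of 8 bases. Alternatives were thresholds of 75 and 150, peaks over 10 kb from a TSS, no peaks above 10% repeated words, both weightings, other gaps, any gene in place of protein-coding ones, and other windows for words. Of the lists, Btk and Irak1 lie on X, and 3 genes were not matched by name. Syk, 1 of these, is annotated under its older symbol Sykb, found through the synonyms of RefSeq (GRCm38.p6, used for names only). Some genes that the naming rule covers are not reported here.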

Additional observations from a re-analysis of the deposited data

Results flagged for a closer look

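The rule for the members leaves out peaks that are not on chromosomes 1 to 19, and some of these reached a score of 100. On chromosome X 6 of 291 distal peaks did. On unplaced sequence 10 of 61 peaks did, and on the mitochondrial genome 7 of 7 peaks did. With no peak list of a control, these are given as values only.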

How the results depend on the processing

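The number of strong distal peaks was 2309 at a threshold of 75, 505 at 150 and 831 beyond 10 kb from any TSS. At 75 and 150 the median width exceeded that of weaker peaks by 937 and 1169 bp, the CpG-rich share by 5.58 and 9.68 percentage points, and at 150 the intergenic share by 13.9, with a ratio of 1.29 for the B cell list. With weaker peaks weighted by width the excess was 7.79 points for intergenic, 5.59 for CpG-rich, 2.40 for a neighbour within 10 kb and -2.56 for a promoter peak at the nearest gene. CpG-rich over whole peaks exceeded by 2.06 points. The neighbour excess was 9.78 points beyond 10 kb from a TSS, 0.759 at gaps under 2 kb, 1.61 under 50 kb and, added after seeing the data, 13.2 at 500 bp to 10 kb.

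Words with an interval above 1 numbered 3 at a threshold of 150 (KLF and SP, ETS and the octamer), 1 with width weighting, 2 in the central 150 bp and 18 over whole peaks, where wider peaks hold more bases. Words with an interval below 1 numbered 2 at a threshold of 75, 0 with width weighting, 2 in the central 150 bp, 0 over whole peaks and, added after seeing the data, 0 per kb of peak. Among words whose interval first excluded 1, the ratio crossed 1 for NF-kappaB (0.945 with width weighting) and CTCF (1.01 with width weighting and 1.85 over whole peaks). Words whose interval first held 1 crossed it too, among them the p53 element (2.40), RUNX (2.015) and AP-1 (2.005) over whole peaks, the octamer (0.932 with width weighting) and CRE (0.796 beyond 10 kb from a TSS). Apart from the 3 values of NF-kappaB and CTCF, 147 of those for single words stayed within the interval first given and 30 left it. No paired analysis was possible because the series has 1 library with a peak list. Matching older gene symbols, leaving out CpG-rich peaks, the G and C weighting for position and the counts at peak edges were also added after seeing the data. Depth limits are unknown, since the list holds no reads.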
